A study of Mus musculus with 8 samples.

Results

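Keratins of the mammary epithelium were followed in 4T1 cells, a mouse mammary carcinoma line, by their 10 rows in a gene table with 24787 rows. The 10 genes were chosen by symbol: Krt7, Krt8, Krt18, Krt19 and Krt20, which are keratins of luminal and other simple epithelia, Krt5, Krt14, Krt15 and Krt17, which are keratins of basal cells, and Krt80, a keratin of differentiating epithelium. RNA was sequenced in 8 libraries, 4 from 4T1 cells labelled as an Etv5 knockdown by shRNA and 4 from 4T1 cells with a control shRNA, whose genotype label is WT. The file headers give the Etv5 libraries the single construct name sh2, so the knockdown appears to rest on 1 shRNA, and the labels do not say that replicates came from separate cultures. P-values therefore measure the spread between these libraries, which may be technical. Values are coverage values: the authors' deposited signal, read here as mean coverage per base of a gene after scaling between libraries. Levels, ranks and ratios of different genes are set side by side on that reading. The annotation and scaling behind it are not stated. Read depth is not known from these values, and no counting interval is given.

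Keratins build the intermediate filaments of epithelial cells. A filament is made of pairs, each joining a type I keratin (Krt14, Krt15, Krt17, Krt18, Krt19 and Krt20) with a type II keratin (Krt5, Krt7, Krt8 and Krt80). In the mammary gland Krt8 and Krt18 pair in luminal cells and Krt5 and Krt14 in basal and myoepithelial cells, which is why these genes serve as lineage markers.

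Etv5, the ETS-family transcription factor gene that the shRNA targets, was at 13.0, 11.2, 7.52 and 12.7 with the Etv5 shRNA and at 15.2, 15.1, 11.7 and 14.4 with the control shRNA. The groups overlapped, and the log2 fold change was -0.33 (SE 0.188; adjusted p 0.819 by limma), and -0.17 (adjusted p 0.422 by limma) without Etv5 shRNA replicate 3. The libraries labelled as knockdown are therefore called by their shRNA.

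Replicate 3 of the Etv5 shRNA stood apart. Its values summed to 390495, against 254792 to 308393 in the other 7 libraries, and ribosomal protein genes made up 21.7% of its sum, against 7.85% to 11.9%. Relative to the median of the other 3 Etv5 shRNA libraries, the median difference on the log2(value + 1) scale was 0.53 for genes with transcripts of up to 1844 bases and -1.11 for genes of 4504 bases or more. The test of each keratin is given with and without it. All 12 epithelial markers other than keratins passed the filter on low values, with summed levels of 380 to 433 with the Etv5 shRNA and 349 to 402 with the control shRNA. Among the markers of other cell types 1 of 10 for leukocytes (Cd68), 1 of 7 for fibroblasts (Pdgfra) and 0 of 5 for endothelium passed. Ptprc was at most 0.0460, Col1a1 at most 0.357 and Pecam1 at most 0.0542 in any library. In a bulk sample fewer cells of a type and less RNA per cell cannot be told apart.

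The most abundant keratin transcripts of these cells were those of simple epithelium. In the control libraries Krt18 averaged 668 ± 98.8 and Krt8 408 ± 62.9 (SD, n = 4 each), which placed them at ranks 36 and 70 among the 16916 rows above 0 in the controls. Krt7, a type II keratin of ductal epithelium, averaged 216 ± 25.1 (SD, n = 4) at rank 143. In the order of levels Krt19, Krt14 and Krt80 followed at 21.7 ± 4.16, 11.2 ± 1.45 and 7.97 ± 1.62 (SD, n = 4 each), at ranks 2666, 4858 and 6098. From Krt18 down to Krt17 each keratin was above the next in all 4 control libraries, with ranges that did not overlap.

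Among the basal keratins nearly all of the signal was Krt14. Krt5, its textbook type II partner, was at 0.00564 or less in every library. Krt15, a keratin of basal progenitors in skin, was at 0.139 or less. Krt17, induced in injured and activated epithelium, ranged from 0.394 to 1.46 with the Etv5 shRNA and from 0.189 to 0.456 with the control shRNA. Krt20, the keratin of intestinal and urothelial surface cells, was at 0.176 or less. The control ranges of Krt20, Krt15 and Krt5 overlapped, so no order among these 3 is given. These 4 genes lay under the filter (a value of 0.5 or more in at least 4 libraries) and were not tested, so 6 of the 10 keratins were. Among genes outside the keratins, 9 of 20 basal and myoepithelial genes passed the filter, such as Tns4, Lamb3, Sparc and Procr at 117, 27.3, 18.2 and 13.0 in control means, and 11 did not. Among those 11, Trp63, the master regulator of basal epithelium, was at 0.0291 or less, and the myoepithelial smooth muscle genes Acta2, Cnn1 and Myh11 at 0.0566, 0.0479 and 0.0200 or less.

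Keratin signal was uneven along the chromosomes. On mm10 the type II genes lie together on chromosome 15 with Krt18 at their end, and the other type I genes on chromosome 11. Of 53 keratin genes taken as protein-coding from the annotation, all of them in the table, 6 had a control mean above 1. All 6 are among the 10 keratins. Krt74 and Krt85 also have rows but are not among the 53, and were at 0.160 or less in every library. On chromosome 15 Krt80 (101347444 to 101370162, minus strand) and Krt7 (101411043 to 101430313, plus strand) are 40.9 kb apart at one end of the cluster. Krt8 (101996698 to 102004482, minus strand) and Krt18 (102028180 to 102032027, plus strand) are 23.7 kb apart at the other end. Among the 53, none of the 22 keratin genes between Krt7 and Krt8 exceeded 0.399 in any library. On chromosome 11 Krt19 (100140810 to 100148665) lies 4.88 kb from Krt15 (100131758 to 100135928), and Krt14 (100203162 to 100207548) 48.7 kb from Krt17 (100256217 to 100261029), all on the minus strand.

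**Figure D1:**
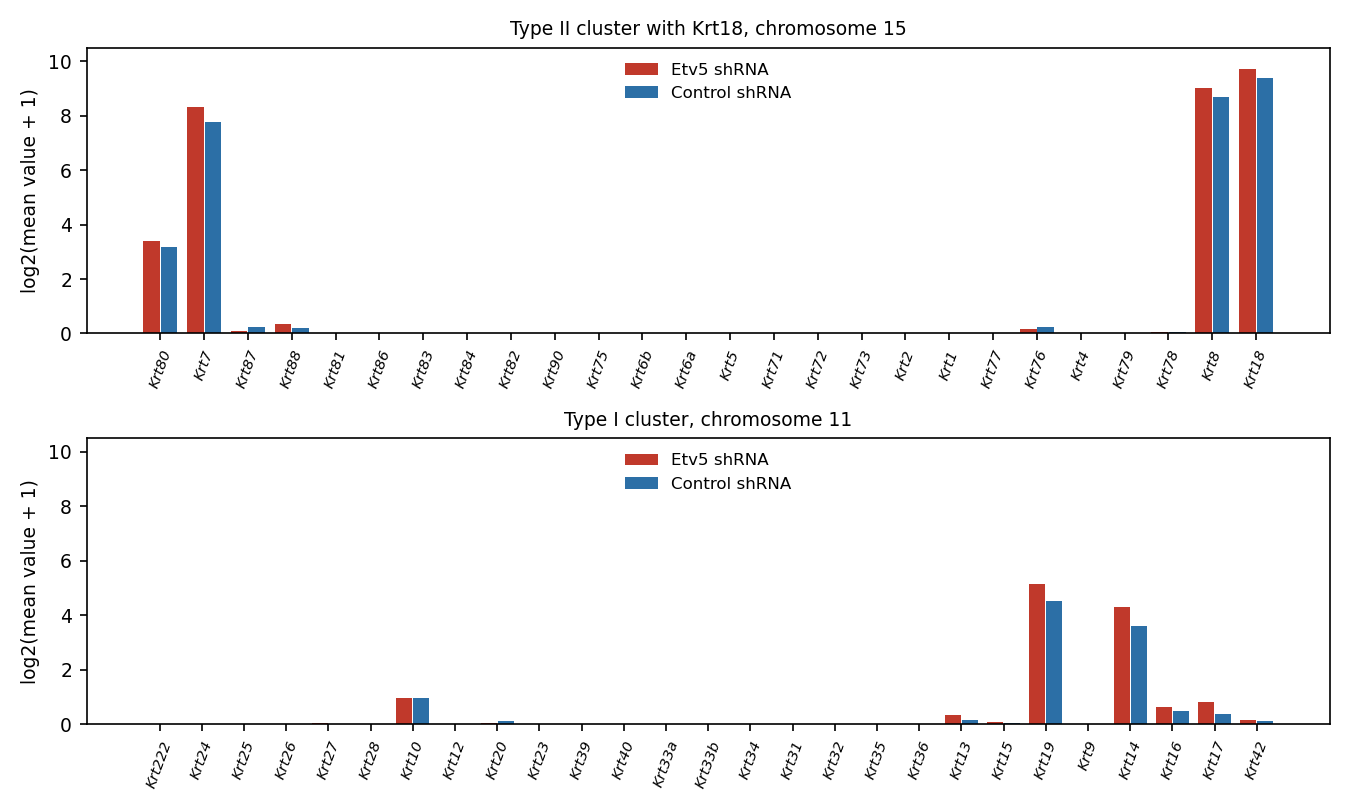
Mean coverage value of the 53 keratin genes taken as protein-coding from the annotation (without Krt74 and Krt85), as log2(mean + 1), in chromosome order, with Etv5 shRNA (left bars) and control shRNA (right bars), n = 4 libraries each. The tall bars are Krt7 beside Krt80 at one end of the chromosome 15 cluster, Krt8 and Krt18 at the other end, and Krt19 and Krt14 on chromosome 11, with nearly empty genes between.

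The promoters of the 3 most abundant keratins are shown because Etv5 belongs to the ETS family, whose DNA-binding domain reads a GGAA core. The windows run from 250 bases before to 50 bases after the RefSeq start site (GRCm38.p6, the mm10 assembly) and are written along the gene's strand. Capitals mark matches on either strand to AGGAAG or TATAAA.
Krt8, chr15:102004293-102004592, minus strand: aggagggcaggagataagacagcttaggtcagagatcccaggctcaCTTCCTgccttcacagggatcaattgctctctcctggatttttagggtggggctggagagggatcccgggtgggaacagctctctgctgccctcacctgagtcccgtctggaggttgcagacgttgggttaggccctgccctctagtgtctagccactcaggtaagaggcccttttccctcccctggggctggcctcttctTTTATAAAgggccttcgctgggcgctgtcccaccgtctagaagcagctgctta
Krt18, chr15:102027966-102028265, plus strand: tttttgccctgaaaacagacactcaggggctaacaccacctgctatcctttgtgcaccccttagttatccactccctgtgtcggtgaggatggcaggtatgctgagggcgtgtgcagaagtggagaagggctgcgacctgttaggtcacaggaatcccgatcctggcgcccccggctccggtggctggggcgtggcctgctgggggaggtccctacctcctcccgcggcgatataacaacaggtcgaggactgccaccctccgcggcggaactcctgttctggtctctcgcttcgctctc
Krt7, chr15:101412153-101412452, plus strand: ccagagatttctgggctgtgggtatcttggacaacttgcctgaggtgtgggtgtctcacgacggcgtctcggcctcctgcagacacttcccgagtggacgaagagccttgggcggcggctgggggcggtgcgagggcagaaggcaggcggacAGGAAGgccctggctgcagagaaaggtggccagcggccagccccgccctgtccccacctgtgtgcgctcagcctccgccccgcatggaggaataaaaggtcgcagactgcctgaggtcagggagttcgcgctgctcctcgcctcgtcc

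AGGAAG, a longer word that holds the GGAA core, occurred once in the Krt7 window, starting at position -98 from the start site on the gene's strand, and once in the Krt8 window, at -204 on the opposite strand. It did not occur in the Krt18 window. Among 32851 promoter windows of the same length 35.4% held it. GGAA itself, on either strand and counting the matches inside AGGAAG, occurred 3, 3 and 2 times in the Krt8, Krt7 and Krt18 windows. Over all windows the median was 3 matches, and 96.0% held at least 1. The ETS word CCGGAA (14.9% of all windows) and the AP-1 word TGANTCA (7.81%) occurred in none of these 3 windows. GGGCGG, the word read by Sp1, occurred 4 times in the Krt7 window and in neither of the others (35.7% of all windows held at least 1, with a median of 0 matches). TATAAA (13.6%) was in the Krt8 window only, as 2 overlapping matches on opposite strands. They started at -3 on the opposite strand and at -1 on the gene's strand, so they lay across the RefSeq start site. A match describes these letters and is not a site shown to be bound. RefSeq windows were matched for 6 of the 10 keratins, and that of Krt14 lies at the start of a non-coding transcript and is not shown. The Krt7 window lies at the start of its longest coding transcript, downstream of the gene start given above, which belongs to other transcripts. The RefSeq start sites of Krt8 and Krt18 also lie slightly inside the gene bounds given above. Match positions are counted from the RefSeq start sites, not from those bounds.

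No keratin differed between the shRNA groups by the test. Of the 6 tested, none was called higher or lower by limma over 8 libraries (adjusted p under 0.05), and 1, Krt14, had an unadjusted p under 0.05. Over all 11731 genes tested, 0.00852% were called higher and 0.486% lower, 1 and 57 genes, or 7 and 49 with median-of-ratios scaling, and 7.09% had an unadjusted p under 0.05. Without replicate 3 of the Etv5 shRNA again none of the 6 was called by limma, where 1.08% of all genes were called higher and 2.05% lower, and 2, Krt14 and Krt80, had an unadjusted p under 0.05 (18.8% of all genes). The median log2 fold change of the 6 was 0.38 over 8 libraries, with 5 above 0, and that of all genes -0.11. Without replicate 3 the medians were 0.22 for the 6 keratins and -0.003 for all genes. Median-of-ratios scaling moved the median of all genes over 8 libraries to 0.02. The folds given below for each keratin are without that scaling and are not centred on the median of all genes. With it the log2 fold changes over 8 libraries were 0.38 for Krt18, 0.42 for Krt8, 0.67 for Krt7 and 0.68 for Krt19. They were 0.80 for Krt14 and -0.0185 for Krt80, and again none was called by limma.

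**Figure D2:**
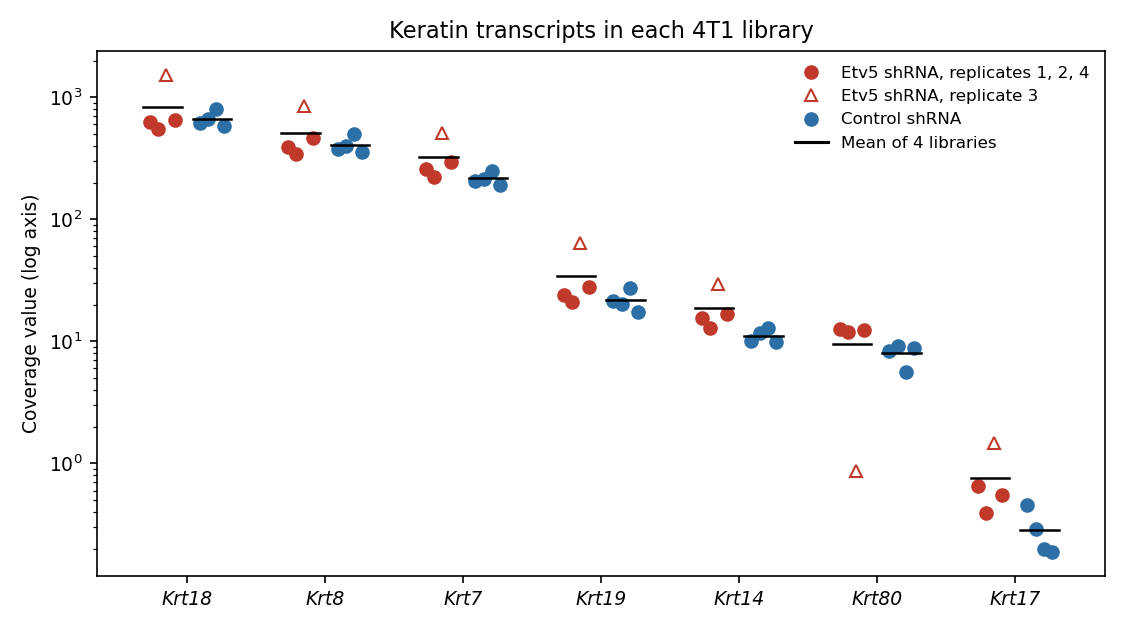
Coverage value (log axis) of 7 keratin genes in each library, Etv5 shRNA on the left of each pair and control shRNA on the right, with the mean of 4 libraries as a line. Replicate 3 of the Etv5 shRNA (triangle) was the highest library for Krt18, Krt8, Krt7, Krt19, Krt14 and Krt17 and the lowest for Krt80.

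Krt18, the luminal type I keratin, was at 633, 545, 1534 and 646 with the Etv5 shRNA and at 617, 669, 806 and 581 with the control shRNA. Replicate 3 of the Etv5 shRNA was far above all others, and the remaining libraries of both groups overlapped. The log2 fold change was 0.21 (95% interval -0.54 to 0.95; adjusted p 0.891 by limma), and -0.13 (-0.47 to 0.21; adjusted p 0.678 by limma) without replicate 3. Krt8, its type II partner, was at 395, 344, 856 and 461 with the Etv5 shRNA and at 379.7, 399, 498 and 355 with the control shRNA. Its groups overlapped in the same way, with a log2 fold change of 0.25 (-0.40 to 0.90; adjusted p 0.879 by limma), and of -0.03 (-0.37 to 0.32; adjusted p 0.942 by limma) without replicate 3. For both genes the sign turned with that library, and the intervals without it reach -0.47 for Krt18 and -0.37 for Krt8. Of the 50-base stretches of the Krt8 transcript 26.9% also occur in the pseudogene Krt8-ps, so part of its coverage is uncertain. For Krt18 0.720% are shared with other genes.

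Krt7, the other abundant type II keratin, was at 260.1, 223, 507 and 297 with the Etv5 shRNA and at 207, 216, 251 and 192 with the control shRNA. Replicate 3 of both groups was the highest of its group, and the groups overlapped only in that replicate 2 of the Etv5 shRNA lay below control replicate 3. The log2 fold change was 0.50 (SE 0.254; 95% interval -0.07 to 1.08; adjusted p 0.776 by limma), and 0.26 (-0.04 to 0.56; adjusted p 0.337 by limma) without replicate 3. Krt19, a type I keratin of luminal and progenitor cells that lacks the usual tail domain, was at 24.1, 21.1, 63.8 and 28.0 with the Etv5 shRNA and at 21.3, 20.4, 27.4 and 17.6 with the control shRNA. Its groups overlapped, at a log2 fold change of 0.51 (-0.22 to 1.25; adjusted p 0.862 by limma), and of 0.17 (-0.16 to 0.50; adjusted p 0.565 by limma) without replicate 3.

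Krt14, the basal type I keratin, was at 15.4, 13.0, 29.5 and 16.9 with the Etv5 shRNA and at 10.1, 11.8, 12.9 and 9.82 with the control shRNA. Every Etv5 shRNA library lay above every control library, narrowly so for Etv5 shRNA replicate 2 and control replicate 3. Groups that did not overlap were found for 1.52% of all genes tested with higher and 7.58% with lower values for the Etv5 shRNA. The mean was 18.7 ± 7.38 with the Etv5 shRNA and 11.2 ± 1.45 with the control shRNA (SD, n = 4 each), a log2 fold change of 0.64 (SE 0.239; 95% interval 0.10 to 1.18; adjusted p 0.564 by limma). Without replicate 3 the Etv5 shRNA mean was 15.1 ± 1.99 (SD, n = 3), at a log2 fold change of 0.41 (SE 0.121; 0.13 to 0.68; adjusted p 0.114 by limma). Of its 50-base stretches 11.4% are shared with Krt16 and 3.34% with Krt17, which were at 0.710 or less and 1.46 or less.

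Krt80 differed most from the other keratins in how the libraries fell. It was at 12.6, 11.9, 0.876 and 12.5 with the Etv5 shRNA and at 8.40, 9.14, 5.59 and 8.76 with the control shRNA. Replicate 3 was the lowest library of its group in both groups, where for the other 5 tested keratins it was the highest of both. Over 8 libraries the log2 fold change was -0.12 (SE 0.606; 95% interval -1.49 to 1.26; adjusted p 0.954 by limma). Without replicate 3 of the Etv5 shRNA the groups did not overlap, at 12.3 ± 0.387 with the Etv5 shRNA (SD, n = 3) and 7.97 ± 1.62 with the control shRNA (SD, n = 4). The log2 fold change was then 0.59 (SE 0.145; 0.27 to 0.92; adjusted p 0.0651 by limma). Groups without overlap and higher with the Etv5 shRNA then made up 9.76% of all genes, Krt14 and Krt80 among them, and lower ones 10.4%. Both were called higher by limma in 2 further fits without that library, chosen after the data were seen. With the trend with transcript length removed, the adjusted p by limma was 0.0196 for Krt80 and 0.0102 for Krt14, where 4.14% of all genes were called higher. With the length trend kept and control replicate 3 left out as well, it was 0.00582 for Krt80 and 0.0240 for Krt14 by limma, where 3.58% were. With any 1 other library left out in the place of control replicate 3, neither was called. Of the 50-base stretches of the Krt80 transcript 3.85% are shared, on either strand, with Gm35853.

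**Figure D3:**
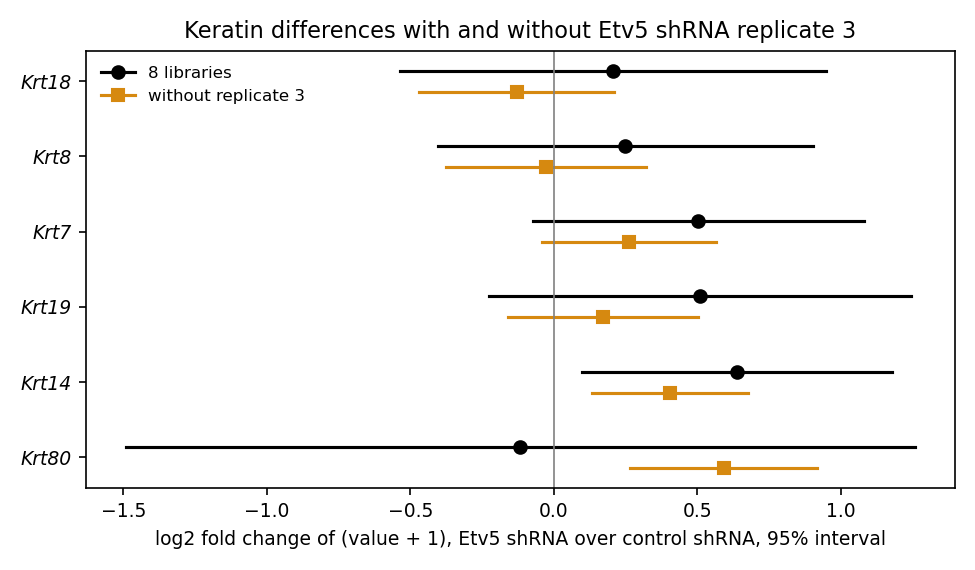
Log2 fold change of value + 1, Etv5 shRNA over control shRNA, with 95% intervals by limma, for the 6 tested keratins over 8 libraries (circles) and without Etv5 shRNA replicate 3 (squares). The Krt80 interval ran between -1.49 and 1.26 over 8 libraries and between 0.27 and 0.92 over 7, and only the intervals of Krt14 excluded 0 in both fits.

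Over all genes the deviation of Etv5 shRNA replicate 3 moved with transcript length. Among the 6 keratins it did not follow the length of the longest annotated coding transcript alone. The longest annotated coding transcripts of Krt18, Krt19, Krt14 and Krt8 are 1437, 1576, 1698 and 1958 bases long, and those of Krt80 and Krt7 3919 and 4094. On the log2(value + 1) scale replicate 3 of the Etv5 shRNA stood 1.28, 1.37, 0.89 and 1.11 above the median of the other 3 Etv5 shRNA libraries for Krt18, Krt19, Krt14 and Krt8. The difference was -2.85 for Krt80 and 0.96 for Krt7. Among the 2903 other tested genes with transcripts of 3004 to 4503 bases, whose median was -0.67, 0.517% lay lower than Krt80 and 1.83% higher than Krt7. With the length trend removed over 8 libraries the log2 fold change was 0.041 for Krt80 and 0.65 for Krt14, and limma called neither (adjusted p 0.978 and 0.145). Which transcript the authors averaged over is not given in the sources used here. Krt7 and Krt80 have annotated transcripts of different lengths, so their place against length depends on the transcript used.

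**Figure D4:**
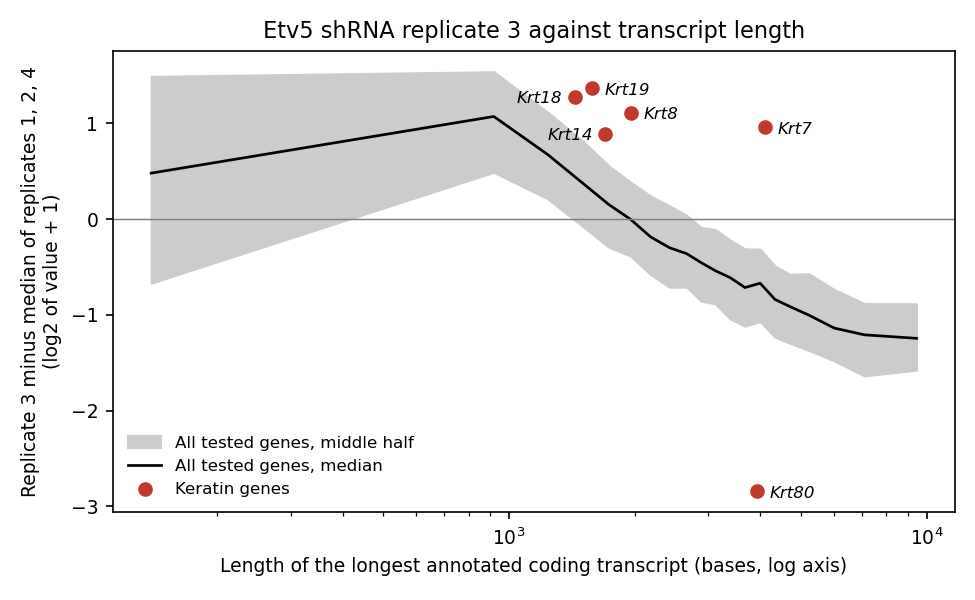
Difference of Etv5 shRNA replicate 3 from the median of Etv5 shRNA replicates 1, 2 and 4, in log2 of value + 1, against transcript length (log axis), for the 6 tested keratins and for all tested genes as the median with the 25th to 75th percentile over bins of genes ordered by length. Krt80 lay at -2.85 and Krt7 at 0.96 although their longest annotated coding transcripts are close in length.

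The make-up of the keratin pool was compared within each library, which sets the scale of a library aside. Ratios were chosen after the values were seen and are given without a test. Krt7 stood at 65.9%, 64.7%, 59.2% and 64.5% of Krt8 with the Etv5 shRNA and at 54.4%, 54.0%, 50.4% and 54.1% with the control shRNA. Krt14 stood at 3.91%, 3.77%, 3.45% and 3.67% of Krt8 with the Etv5 shRNA and at 2.67%, 2.96%, 2.59% and 2.77% with the control shRNA. Both were higher in each of the 4 Etv5 shRNA libraries, replicate 3 included, than in any control library.

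Krt19 showed the same, at 6.11%, 6.13%, 7.45% and 6.07% of Krt8 with the Etv5 shRNA and at 5.62%, 5.12%, 5.51% and 4.95% with the control shRNA. A ratio to Krt8 that did not overlap and was higher with the Etv5 shRNA was found for 34 of 11730 genes, 0.29%, and Krt7, Krt14 and Krt19 are 3 of the 34, while 6% of genes did not overlap and were lower. The 0.29% depends on replicate 3 of the Etv5 shRNA, where Krt8 was 2.17 times the median of the other Etv5 shRNA libraries. There Krt7, Krt14 and Krt19 were 1.95, 1.91 and 2.65 times their own medians. Without replicate 3 of the Etv5 shRNA 2.47% were higher, Krt80 then among them with these 3, and 7.52% lower, Krt18 then among them. With Krt18 as the denominator the ratios of Krt14 and Krt19 again did not overlap (0.426% of genes higher and 4.08% lower). That of Krt7 did, at 41.1%, 40.8%, 33.0% and 46.0% with the Etv5 shRNA and 33.5%, 32.2%, 31.1% and 33.1% with the control shRNA. Without replicate 3 the ratios of Krt7, Krt8, Krt14, Krt19 and Krt80 to Krt18 were all higher with no overlap, as for 10.3% of genes (4.48% lower). When each library was scaled to its own Krt8 value, a setting added after the data were seen, limma called none of the 3 (adjusted p 0.797 for each over 8 libraries, where 0% of all genes were called higher and 0.273% lower), with log2 fold changes of 0.25 for Krt7, 0.40 for Krt14 and 0.27 for Krt19. Without replicate 3 they were 0.29, 0.43 and 0.20, again with no call by limma (adjusted p 0.292, 0.273 and 0.743), where 0.0426% of all genes were called higher and 0.759% lower.

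**Figure D5:**
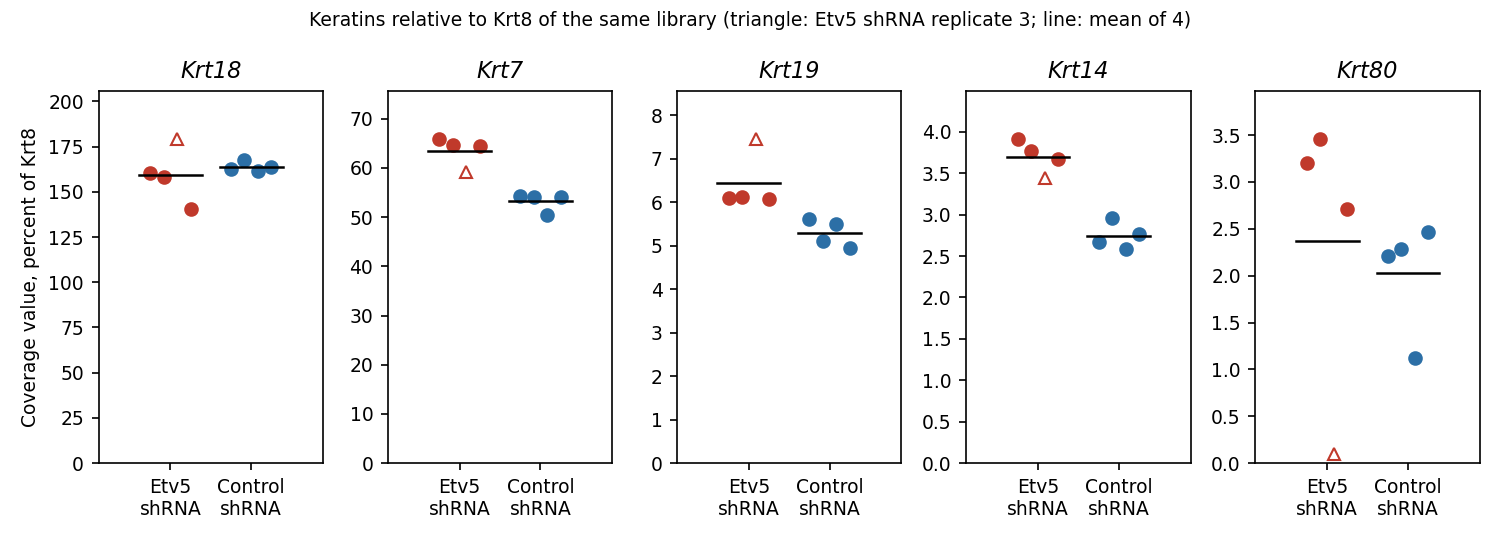
Coverage value of 5 keratins as a percent of Krt8 of the same library (linear axes from 0), Etv5 shRNA on the left and control shRNA on the right of each panel, with the mean of 4 as a line. For Krt7, Krt19 and Krt14 all 4 Etv5 shRNA libraries, replicate 3 (triangle) included, lay above all 4 control libraries.

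Krt8 and Krt18 together made up 76.6%, 76.8%, 79.9% and 75.7% of the summed 10 keratins with the Etv5 shRNA and 80.2%, 80.6%, 81.4% and 80.4% with the control shRNA. The basal keratins held 1.22%, 1.17%, 1.04% and 1.21% of the luminal and basal sum with the Etv5 shRNA, against 0.857%, 0.923%, 0.820% and 0.875% with the control shRNA, nearly all of it Krt14. In both measures the groups did not overlap. No share over all genes exists for such sums. Type I and type II keratins were near balance, with a type I to type II ratio of 1.01, 1.002, 1.19 and 0.898 with the Etv5 shRNA and 1.09, 1.13, 1.12 and 1.10 with the control shRNA, which overlapped only through Etv5 shRNA replicate 3. The 10 keratins made up 0.452% to 0.766% of all values with the Etv5 shRNA and 0.457% to 0.520% with the control shRNA.

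The genes whose pattern over the libraries was most like that of a keratin were sought for Krt18 and Krt14, the highest of all and the highest basal one, by Pearson's r of log2(value + 1) against 7231 protein-coding genes with a mean of at least 5. The points are the same libraries for every gene, and over 8 libraries 1 of them is Etv5 shRNA replicate 3. For Krt18 they were Pfdn1 (r = 0.998), Etfb (0.997) and Mob2 (0.997) over 8 libraries, and Pfdn1 (0.998), Ctbp1 (0.996) and Aldoa (0.995) over the 7 without it. Krt8 followed Krt18 at r = 0.982 over 8 libraries, in place 201, and at 0.902 over 7, in place 543. For Krt14 they were Sfn (0.989), Nop2 (0.988) and Krt7 (0.986) over 8 libraries, and Shmt2 (0.989), G3bp1 (0.987) and Ppm1g (0.985) over 7. Krt7 was then at r = 0.953, in place 23, while Krt18 stood at 0.201 with Krt14.

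Beyond the 10, keratin genes were nearly silent. Of a list of 42 other keratins, 1, Krt10 of the suprabasal epidermis, passed the filter, at 0.947 ± 0.450 with the Etv5 shRNA and 0.921 ± 0.135 with the control shRNA (SD, n = 4 each; adjusted p 0.991 by limma), and 10 were at 0 in every library. Krt87, Krt88 and Krt90, which the list left out, were at 0.399 or less. Of the other intermediate filament genes 6 were tested and none called by limma, with none at an unadjusted p under 0.05 and a median log2 fold change of -0.24, or -0.16 without Etv5 shRNA replicate 3. Vim, the mesenchymal filament gene, had a mean above that of every keratin, at 1686 ± 165 with the Etv5 shRNA and 1903 ± 165 with the control shRNA (SD, n = 4 each; adjusted p 0.879 by limma). Lmna, which encodes the nuclear lamins A and C, was at 428 ± 103 with the Etv5 shRNA and 433 ± 18.9 with the control shRNA (SD, n = 4 each; adjusted p 0.943 by limma).

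Genes that anchor keratin filaments to junctions gave 19 tested members and no call by limma over 8 libraries. Of the 19, 1, Ppl, was at an unadjusted p under 0.05 (7.09% of all genes). Without replicate 3 of the Etv5 shRNA 3 were (18.8% of all genes). Ppl was lower in both fits and not called (log2 fold change -0.78 and -0.51; adjusted p 0.485 and 0.0566 by limma). Without replicate 3 of the Etv5 shRNA 1 was called higher, Pkp1, a desmosomal plakophilin. It was at 3.12 ± 0.278 with the Etv5 shRNA (SD, n = 3) and 2.04 ± 0.139 with the control shRNA (SD, n = 4; adjusted p 0.0383 by limma). In that library itself Pkp1 was at 1.47. Their log2 fold changes had a median of -0.20 over 8 libraries and of 0.05 without that library.

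Of 9 tested luminal genes 1 was called by limma, Ehf, an epithelial ETS factor, which fell to 0.107 ± 0.0528 with the Etv5 shRNA, against 2.37 ± 0.336 with the control shRNA (SD, n = 4 each; adjusted p 0.000377). It had the call without replicate 3 as well (adjusted p 4.5e-05 by limma). All 4 Etv5 shRNA values of Ehf, 0.0372 to 0.165, lay under the filter value, so Ehf was tested only through the 4 control libraries. A gene this low with the Etv5 shRNA could pass the filter only by being higher in the controls. The filter therefore set the direction of this difference. Among the other luminal genes tested, Cd24a, Gata3, Xbp1 and Areg were at control means of 161, 20.1, 19.0 and 18.8 and not called, and among the 11 under the filter Elf5, Pgr and Prlr were at 0.0183 or less. Of 9 tested basal and myoepithelial genes none was called by limma in either fit. Over 8 libraries 1 was at an unadjusted p under 0.05 (7.09% of all genes), and over 7 libraries 3 were (18.8%). The highest were Tns4, a focal adhesion gene, at 68.2 ± 28.7 with the Etv5 shRNA and 117 ± 28.3 with the control shRNA (adjusted p 0.713 by limma), and Lamb3, a laminin chain gene of the basement membrane, at 29.1 ± 3.73 with the Etv5 shRNA and 27.3 ± 1.53 with the control shRNA (SD, n = 4 each; adjusted p 0.891 by limma). Over 8 libraries the median log2 fold change was -0.13 for luminal and -0.17 for basal genes, against -0.11 for all genes, and without replicate 3 it was -0.07 and -0.03, against -0.003. Of the cornified envelope genes 3 were tested and none called by limma. Of these 3 genes, 2 were at an unadjusted p under 0.05 over 8 libraries (7.09% of all genes). Without replicate 3 it was again 2 (18.8% of all genes). The median log2 fold change of the 3 was 0.71, or 0.43 without replicate 3. Sfn, which encodes the epithelial 14-3-3 protein stratifin, was at 29.5 ± 13.9 with the Etv5 shRNA and 16.6 ± 2.92 with the control shRNA (adjusted p 0.627 by limma), and Cstb, a protease inhibitor gene, at 62.8 ± 21.1 with the Etv5 shRNA and 69.5 ± 20.3 with the control shRNA (SD, n = 4 each; adjusted p 0.894 by limma).

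Transcription factors known to act on keratin genes had 22 tested members and no call by limma over 8 libraries. Among them 3 were at an unadjusted p under 0.05 (7.09% of all genes). Their median log2 fold change was -0.31, against -0.11 for all genes. Without Etv5 shRNA replicate 3 the median was -0.003, with 10 of 22 above 0 and 5 at an unadjusted p under 0.05 (18.8% of all genes). The members called in that fit, 2 in all, were both lower. Cebpb, a factor of inflammation and epithelial differentiation, was at 80.1 ± 19.6 with the Etv5 shRNA (SD, n = 3) and 162 ± 34.8 with the control shRNA (SD, n = 4; adjusted p 0.0268 by limma), and at 164 in the library left out. Elf3, an epithelial ETS factor, was at 5.56 ± 0.395 with the Etv5 shRNA (SD, n = 3) and 9.11 ± 1.84 with the control shRNA (SD, n = 4; adjusted p 0.0453 by limma), and at 6.99 in the library left out. With median-of-ratios scaling in that fit the call of Elf3 was lost (adjusted p 0.0515 by limma). Elf3 is also among the 12 epithelial markers, of which none was called by limma over 8 libraries. Of the 12, 3 were at an unadjusted p under 0.05 (7.09% of all genes). Without that library Cdh1, which encodes E-cadherin, was higher, at 63.3 ± 2.87 with the Etv5 shRNA (SD, n = 3) and 38.5 ± 3.49 with the control shRNA (SD, n = 4; adjusted p 0.00455 by limma). Of the markers of other cell types Pdgfra, a receptor gene of fibroblasts, was then lower, at 1.99 ± 0.138 with the Etv5 shRNA (SD, n = 3) and 3.25 ± 0.474 with the control shRNA (SD, n = 4; adjusted p 0.0452 by limma), and Cd68, a macrophage lysosome gene, was not called. The part of these markers in the keratin values was not tested.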

How the data were processed

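RNA of 8 libraries of 4T1 cells was analysed from 1 deposited table. Per the labels' protocols, TruSeq libraries of total RNA were sequenced on a NovaSeq instrument; the submitters' processing notes name STAR 2.7.10a and mm10. The authors' values are a signal: the file headers name coverage tracks, and the program, annotation and scaling behind the gene values are not stated. Depth is unknown.

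Groups and replicate numbers came from sample titles. Values were analysed as log2(value + 1), which understates the change of low genes. A gene was tested if at least 4 libraries reached 0.5, which left 11731. Etv5 shRNA was set over control shRNA with limma 3.58.1 (R 4.3.3; trended prior variance, no covariate), with Benjamini-Hochberg adjustment over all genes tested and a call at an adjusted p under 0.05. Rows with a symbol turned into a date, 26 in all, were tested and not named. Lengths, positions and shared 50-base stretches came from GENCODE M21 (longest coding transcript; a length for 98.3% of rows) and promoters from RefSeq. The fit was tested on simulated data.

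Members and lists were chosen with earlier results of these data known. Named genes were the 10 keratins, Etv5, other keratins past the filter, the called members of each list in either fit or its 2 highest where none was called, and the genes most like Krt18 and Krt14. Of the genes this rule gave, 1 epithelial marker is not reported here. Other basal, luminal and cell type markers, and Ppl, Krt16, Krt74, Krt85, Krt87, Krt88 and Krt90, were named after their values were seen. Alternatives were other scalings, filters and pseudocounts, the replicate block, removal of the length trend, and leaving out libraries.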

Additional observations from a re-analysis of the deposited data

Results flagged for a closer look

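Each keratin, the sums and ratios of keratins and a few library measures were screened within groups of 4 libraries, by how far the highest or lowest library stood off from the rest relative to the whole range (Dixon's test at the 95% level). This found 13 of 70 groups. About 1 in 20 would be found by chance, 3.5 here. Replicate 3 of the Etv5 shRNA was the library in 11 of the 13. The sums and ratios reuse the same genes and libraries, so a deviating library is counted repeatedly. The 3.5 is therefore a rough guide only.

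Among keratins that library was the highest of its group for Krt18 (1534, the others 545 to 646) and Krt19 (63.8, the others 21.1 to 28.0), and the lowest for Krt80 (0.876, the others 11.9 to 12.6). It was the highest in the summed type I keratins (1628), the 10 keratins (2992) and the luminal keratins (2960). As a percent of Krt8 it was the highest for Krt19 (7.45%), and as a percent of Krt18 the lowest for Krt80 (0.0571%). In library measures it had the highest sum of values (390495), the fewest genes above 0 (13920) and the highest ribosomal protein share (21.7%). Replicate 3 of the control shRNA was the lowest of its group in the ratio of Krt7 to Krt8 (50.4%, the others 54.0% to 54.4%) and in genes above 0 (15126). What set these libraries apart was not tested.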

How the results depend on the processing

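Krt7, Krt14 and Krt19 had positive log2 fold changes in all 28 settings tried for each, and no keratin was called lower in any. Without Etv5 shRNA replicate 3, Krt8 and Krt18 turned to -0.03 and -0.13 and Krt80 to 0.59. With median-of-ratios scaling as well they were at -0.023, -0.13 and 0.59. Leaving out single libraries, alone or with that one, gave -0.13 to 0.41 for Krt8, -0.19 to 0.37 for Krt18 and -0.36 to 0.66 for Krt80. The length trend, removed without that library, left Krt18 at -0.050 and Krt80 at 0.56. Scaling to Krt8 gave Krt18 -0.044, and without that library Krt18 -0.10 and Krt80 0.62. Over 8 libraries Krt80 was at 0.040 with quantile normalisation and 0.041 with the length trend removed. Krt10 turned to 0.10 with median-of-ratios scaling, 0.22 with quantile normalisation and 0.054 with the length trend removed, and ranged from -0.15 to 0.10 with single libraries left out. Lmna turned to 0.12 with median-of-ratios scaling, 0.088 with the length trend removed and 0.077 without Etv5 shRNA replicate 2. Cstb turned to 0.017 both with median-of-ratios scaling and without control replicate 3, and Lamb3 to -0.002 with equal sums.

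Genes called higher numbered 7 with median-of-ratios scaling, 0 with equal sums, 8 with quantile normalisation, 3 with no filter, 0 with a pseudocount of 0.1 and 28 with the length trend removed. Genes called lower numbered 37 with that pseudocount and 112 with the trend removed. Without Etv5 shRNA replicate 3, median-of-ratios scaling gave 130 higher and 243 lower, and removal of the length trend 481 and 564. Scaling to Krt8 gave 0 higher and 32 lower, and 5 and 89 without that library. Leaving out single libraries, alone or with that one, gave 0 to 420 higher and 28 to 625 lower, the most without replicate 3 of both groups, and 0 to 2 keratins higher. With the length trend removed and without that library 2 keratins were higher. Fits without that library joined to another change were added after the data were seen, except that with median-of-ratios scaling, as was scaling to Krt8. The cause of these changes was not tested.

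Same-numbered libraries deviated together at correlations of 0.549, 0.0924, 0.794 and 0.510, not all over 0.1. Etv5 shRNA replicate 1 was closest to control replicate 4 (0.691). The deviations were taken from group means that include Etv5 shRNA replicate 3. Its correlations with control replicates 1, 2 and 4 were -0.557, -0.131 and -0.715, opposite in sign to those of the other Etv5 shRNA libraries. The check can therefore not tell whether the numbers pair the libraries. The replicate block gave 1 gene higher and 50 lower over 8 libraries and called no keratin. The block without Etv5 shRNA replicate 3 gave 80 higher, 0.682% of genes, and 211 lower. In that fit control replicate 3 is alone in its block and adds nothing to the group difference. The log2 fold changes of that fit are therefore those of the fit without replicate 3 of both groups. The block fit called 1 keratin, Krt80 at 0.45 (adjusted p 0.0498 by limma, range 0.00582 to 0.9999 over all Krt80 settings), and put Krt18 at -0.035. Read depth is unknown, and 4 of the 10 keratins were too low to test.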
